A study of Mus musculus with 6 samples.

Results

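The iron genes described here are 9 genes of cellular iron traffic, matched by symbol in the deposited expression table, which holds 51826 gene rows: the transferrin receptor Tfrc, the metal transporters Slc11a2 and Slc11a1, the ferritin chains Fth1 and Ftl1, the ferritin cargo receptor Ncoa4, the exporter Slc40a1 (ferroportin), and the iron regulatory protein genes Ireb2 and Aco1. Each symbol had 1 row, and all 9 passed the filter on low counts. The libraries came from mouse bone marrow cells labelled as neutrophils, to which microvesicles (membrane particles shed by cells) had been given. In the group called KD_MV here (3 libraries) the microvesicles came from Hepa1-6 mouse hepatoma cells with an ezrin knockdown, and in the group called Ctrl_MV (3 libraries) from wild-type Hepa1-6 cells. Both donor cultures had been deprived of glucose before the microvesicles were collected, so both groups received vesicles of starved cells, and no library of cells without vesicles was analysed here. The knockdown was in the donor cells and not in the sequenced cells, so the level of the targeted gene in these libraries does not check it. The sources used here do not give the strain, sex and age of the mice, the dose, the time or the knockdown construct. Nothing in the labels says that the 3 libraries of a group came from separate animals or cultures, so each p-value measures only the spread between these libraries.

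Cells take up iron bound to transferrin through the transferrin receptor and move it out of endosomes through DMT1, the product of Slc11a2; phagocytes also pump metal out of phagosomes through NRAMP1, the product of Slc11a1. Ferritin, a shell of heavy (Fth1) and light (Ftl1) chains, stores iron, NCOA4 carries ferritin to lysosomes where the iron is released, and ferroportin is the iron exporter of the cell surface. The iron regulatory proteins bind stem-loops called iron-responsive elements when iron is scarce, which blocks translation of mRNAs with an element in the 5' UTR and protects the transferrin receptor mRNA, whose elements lie in the 3' UTR; in iron-replete cells the Aco1 product is a cytosolic aconitase and the Ireb2 product is degraded. This control acts largely on translation and on mRNA decay, and these libraries measure mRNA only.

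The element cores of the member transcripts are shown because the place of the element, in the 5' or the 3' UTR, is what the classes used below rest on. The search was for a C, 5 bases, the loop CAGTGN with a last base other than G, and 5 bases able to pair with the first 5 (Watson-Crick or G with T), on the sense strand of GENCODE M21 transcripts (GRCm38, the same assembly as mm10). Each sequence is 27 bases, 5' to 3', with the loop in capitals. The first 3 lie in 5' UTRs, at chr19:9982733-9982759 on the plus strand, chr7:45459780-45459806 on the minus strand and chr1:45925466-45925492 on the minus strand.
Fth1: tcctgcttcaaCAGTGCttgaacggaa
Ftl1: tcttgcttcaaCAGTGTttgaacggaa
Slc40a1: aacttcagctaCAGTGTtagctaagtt
Tfrc held 4 cores in its 3' UTR on the plus strand, at chr16:32631220-32631246, chr16:32631599-32631625, chr16:32631664-32631690 and chr16:32631711-32631737.
Tfrc core 1: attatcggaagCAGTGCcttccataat
Tfrc core 2: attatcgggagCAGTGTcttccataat
Tfrc core 3: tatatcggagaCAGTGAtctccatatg
Tfrc core 4: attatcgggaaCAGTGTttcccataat
The 2 ferritin elements carry the same paired bases next to the loop. They differ in the last loop base and in base 3 of the printed sequences. A core was found in 154 of 12871 tested protein-coding genes (1.2%), so these letters are uncommon but not limited to iron genes. For Slc11a2, Slc11a1, Ireb2, Aco1 and Ncoa4 these letters were not in the transcripts searched, which says nothing else about them; Slc11a2 is known for an element in one form of its 3' UTR and is grouped with that class below from that knowledge, not from the search.

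Libraries held 37346055 to 42043434 counts. The groups differed widely: edgeR's quasi-likelihood test called 4464 of 16071 tested genes higher and 3995 lower in KD_MV at an adjusted p under 0.05. They also differed in markers of other cell types. The summed level of the 15 erythroid markers with a row was 9121.8 to 10678.2 CPM in KD_MV libraries against 106219.2 to 123390.8 CPM in Ctrl_MV libraries, 10 of the 15 being called lower and 0 higher; CPM here are counts scaled to library size and TMM factors (edgeR). Hemoglobin genes, which made up most of these erythroid sums, took 1.09 ± 0.0808% of counts in KD_MV and 9.95 ± 0.873% in Ctrl_MV (SD, n = 3 each). Monocyte and macrophage markers summed to 1512.2 to 1753.1 CPM in KD_MV against 2149.5 to 2321.2 CPM in Ctrl_MV (5 of 12 tested called higher, 3 lower). Eosinophil markers summed to 472.3 to 654.5 CPM in KD_MV against 30.3 to 33.1 CPM in Ctrl_MV (6 of 9 higher, 0 lower), and B lineage markers to 1747.2 to 1830.5 CPM in KD_MV against 835.2 to 1036.3 CPM in Ctrl_MV (5 of 8 higher, 1 lower). Proliferation genes summed to 1847.5 to 1939.6 CPM in KD_MV against 471.3 to 485.3 CPM in Ctrl_MV (9 of 10 higher, 0 lower). Markers of the labelled cell type summed to 1361.2 to 2227.2 CPM in KD_MV and 2198.5 to 2585.4 CPM in Ctrl_MV (1 of 9 higher, 5 lower), while Ly6g, which defines mouse neutrophils, lay between 1.68 and 2.05 CPM in KD_MV and between 2.04 and 2.77 CPM in Ctrl_MV. Hepatoma markers summed to 6.58 to 9.88 CPM in KD_MV and 23.3 to 34.7 CPM in Ctrl_MV, with 2 of 8 tested, both called lower, and with Serpina1a, Fgb and Ahsg at 0 in all 6 libraries. The part of these cell types in the results on iron genes was not tested, and in bulk libraries fewer cells of a type cannot be told apart from less RNA per cell.

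Most of the iron genes had lower mRNA levels in KD_MV than in Ctrl_MV. Of the 9, 6 fell, 1 rose and 2 did not pass the test; over all tested genes 24.9% were called lower, 27.8% higher and 52.6% either way. Their median log2 fold change was -0.88, beside 0.03 over all tested genes. The genes that fell carry iron in, store it and carry it out, and the single gene that rose was Aco1. By TMM-scaled CPM, the 3 libraries of each group did not overlap for 8 of the 9. This held for 61.3% of all tested genes (29.3% with KD_MV lower and 32.0% with KD_MV higher). By the deposited TPM, which correct for gene length, the groups of Tfrc and Slc11a2 also overlapped. Those of Ireb2 lay the other way there, at 23.1 to 26.3 TPM in KD_MV and 17.3 to 20.2 TPM in Ctrl_MV.

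**Figure D1:**
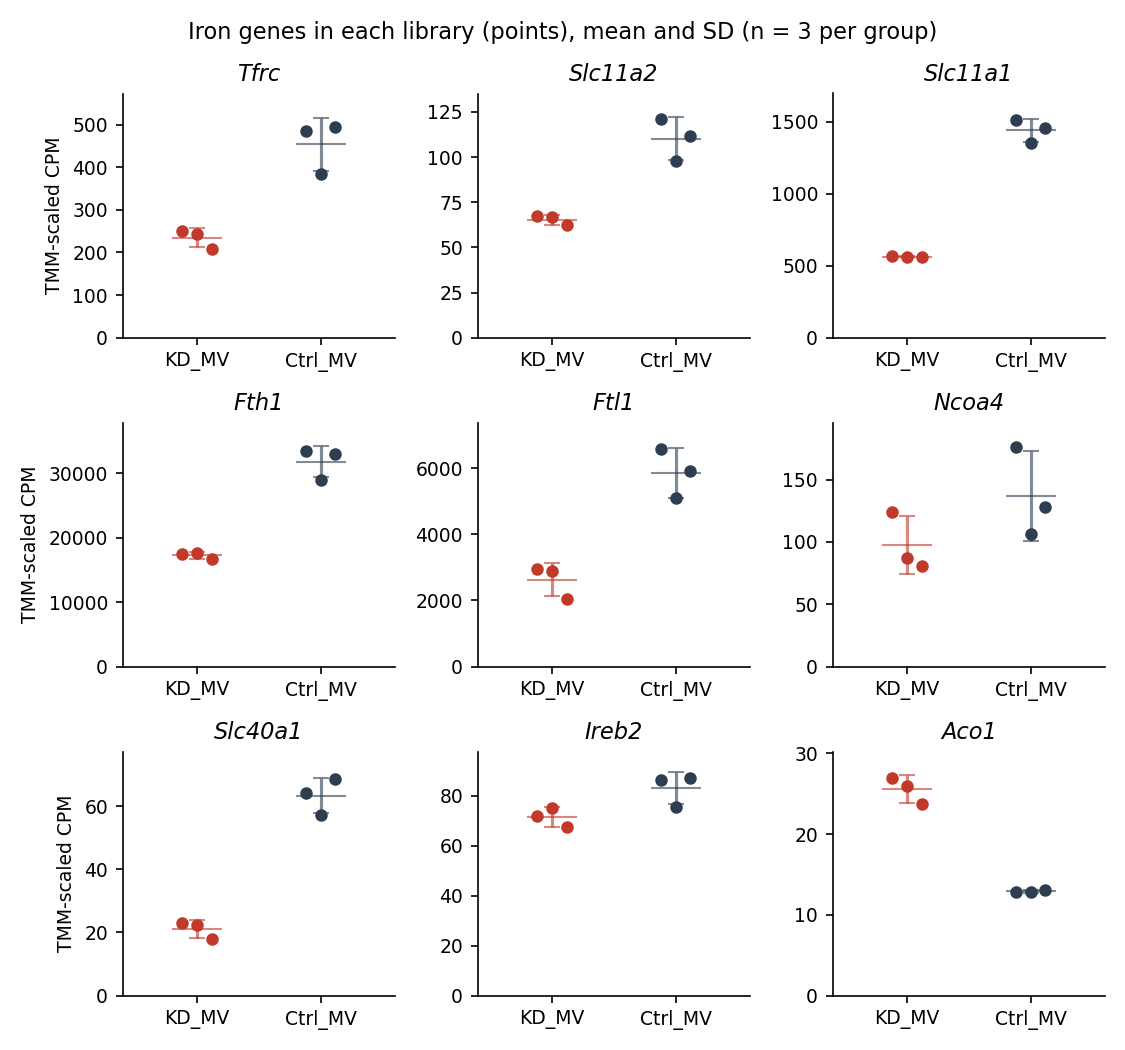
TMM-scaled CPM (vertical axes, linear, from 0) of the 9 iron genes in each library; points are libraries, horizontal lines group means and vertical bars SD, KD_MV at the left and Ctrl_MV at the right of each panel. Ncoa4 is the panel in which the groups overlap, and Aco1 the panel in which the KD_MV libraries lie above the Ctrl_MV libraries.

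Among the uptake genes, Tfrc (ENSMUSG00000022797, chr16:32608920-32632794, plus strand) stood at 251.0, 243.5 and 208.6 CPM in KD_MV replicates 1, 2 and 3 and at 483.9, 382.8 and 493.9 CPM in Ctrl_MV replicates 1, 2 and 3. Every KD_MV library lay below every Ctrl_MV library, with KD_MV replicate 3 the lowest of all. Tfrc averaged 234.4 ± 22.6 CPM in KD_MV and 453.5 ± 61.5 CPM in Ctrl_MV (SD, n = 3 each), a log2 fold change of -0.95 ± 0.13 (SE; edgeR adjusted p = 0.000359). Erythroid precursors are known for high Tfrc. Of the 15 tested erythroid markers, 10 were called lower in KD_MV. Sptb, Klf1, Rhag, Gata1 and Car1 were not called (log2 fold changes -0.44, -0.41, -0.27, 0.34 and 1.33). The part of erythroid cells in the Tfrc level was not tested. Slc11a2 (ENSMUSG00000023030, chr15:100387898-100425072, minus strand), the endosomal iron transporter that works downstream of the receptor, had 67.1, 66.8 and 62.1 CPM in KD_MV libraries and 121.3, 97.6 and 111.8 CPM in Ctrl_MV libraries. Its KD_MV libraries lay close together and apart from the Ctrl_MV libraries, and its log2 fold change was -0.75 ± 0.11 (SE; edgeR adjusted p = 0.00047). The opposite-strand gene Gm5475 that overlaps Slc11a2 held 3 to 10 counts in each of the 6 libraries, against 2967 to 3918 for Slc11a2. Both uptake genes lost their call on log2(TPM + 1), at -0.27 for Tfrc (limma adjusted p = 0.115) and -0.15 for Slc11a2 (limma adjusted p = 0.282), a scale on which the median gene stood at 0.51. By TPM the groups of both genes overlapped. KD_MV replicate 2 lay above Ctrl_MV replicate 2, at 136.6 and 130.6 TPM for Tfrc and at 40.6 and 38.4 TPM for Slc11a2.

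Slc11a1 (ENSMUSG00000026177, chr1:74375195-74386062, plus strand), the phagosomal metal transporter known for resistance of mice to intracellular microbes, showed the tightest replicates among the genes that fell. It stood at 565.2, 559.1 and 557.3 CPM in KD_MV libraries and at 1511.6, 1349.0 and 1454.0 CPM in Ctrl_MV libraries. The groups were far apart relative to their spread, 560.6 ± 4.12 CPM in KD_MV and 1438.2 ± 82.5 CPM in Ctrl_MV (SD, n = 3 each). The log2 fold change was -1.36 ± 0.10 (SE; edgeR adjusted p = 1.31e-05), and it ran from -1.40 to -0.86 over the 17 alternative analyses, each of which called it lower.

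Both ferritin chains fell, and they had the highest TPM of the 9 genes in each group. Fth1 (ENSMUSG00000024661, chr19:9982703-9985092, plus strand), the heavy chain that oxidises iron for storage, had 17500.1, 17688.5 and 16648.2 CPM in KD_MV libraries and 33452.0, 29043.8 and 32955.0 CPM in Ctrl_MV libraries. No KD_MV library came near a Ctrl_MV library, and the means were 17278.9 ± 554.3 CPM in KD_MV and 31816.9 ± 2414.4 CPM in Ctrl_MV (SD, n = 3 each). The log2 fold change of Fth1 was -0.88 ± 0.13 (SE; edgeR adjusted p = 0.000611). Fth1 alone took 1.99 ± 0.0907% of all counts in KD_MV and 2.76 ± 0.186% in Ctrl_MV (SD, n = 3 each). Its call was lost on log2(TPM + 1), at -0.31 (limma adjusted p = 0.116). By TPM, the length-corrected scale, Fth1 ranked 1 among all genes in each KD_MV library and 4 in each Ctrl_MV library, where Hbb-bs, Hba-a2 and Hba-a1, the hemoglobin genes, stood above it.

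Ftl1 (ENSMUSG00000050708, chr7:45457944-45459884, minus strand), the light chain that helps form the iron core, had 2943.7, 2888.9 and 2044.4 CPM in KD_MV libraries and 6573.1, 5083.8 and 5919.1 CPM in Ctrl_MV libraries. KD_MV replicate 3 was the lowest library, below the other two of its group, and the groups did not overlap. Ftl1 averaged 2625.7 ± 504.2 CPM in KD_MV and 5858.7 ± 746.5 CPM in Ctrl_MV (SD, n = 3 each), a log2 fold change of -1.16 ± 0.17 (SE; edgeR adjusted p = 0.000577). Ferritin genes have processed copies elsewhere in the genome, and the sources used here give neither the handling of reads that fit several places nor the strand option of featureCounts, so ferritin counts are uncertain to the extent that reads were split. The copies with counts were small beside their parents: Ftl1-ps1 had 58.4, 51.5 and 36.1 CPM in KD_MV against 114.5, 89.0 and 138.8 CPM in Ctrl_MV (log2 fold change -1.23 ± 0.21, SE; edgeR adjusted p = 0.00115), and Ftl2-ps had 17.4, 16.1 and 12.3 CPM in KD_MV against 37.2, 25.1 and 38.3 CPM in Ctrl_MV (log2 fold change -1.14 ± 0.19, SE; edgeR adjusted p = 0.00123). Fth-ps2 was under 1 CPM in every library and called lower, and Fth-ps3 and Ftl1-ps2 were too low to be tested. Gm10252, an unclassified gene on the opposite strand of Ftl1, had 7.78, 6.8 and 5.51 CPM in KD_MV and 19.4, 14.3 and 45.8 CPM in Ctrl_MV.

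Ncoa4 (ENSMUSG00000056234, chr14:32159865-32179855, plus strand), whose product delivers ferritin for breakdown, did not pass the test. It had 123.8, 86.9 and 80.9 CPM in KD_MV libraries and 176.1, 106.2 and 128.0 CPM in Ctrl_MV libraries. The groups overlapped, with replicate 1 the highest library of each group. The log2 fold change was -0.49 ± 0.21 (SE; 95% interval -0.98 to -0.01; edgeR adjusted p = 0.0813). Ncoa4 became a call without KD_MV replicate 1 (-0.71, adjusted p = 0.0213) and without Ctrl_MV replicate 2 (-0.65, adjusted p = 0.041), and shrank to -0.27 without Ctrl_MV replicate 1 (adjusted p = 0.305). Its direction was positive on log2(TPM + 1) (0.11, limma adjusted p = 0.648).

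Slc40a1 (ENSMUSG00000025993, chr1:45908068-45926523, minus strand), the exporter, had the lowest log2 fold change of the 9 genes. It stood at 23.1, 22.4 and 18.0 CPM in KD_MV libraries and at 64.2, 57.3 and 68.5 CPM in Ctrl_MV libraries. The highest KD_MV library was far below the lowest Ctrl_MV library, with means of 21.2 ± 2.76 CPM in KD_MV and 63.3 ± 5.65 CPM in Ctrl_MV (SD, n = 3 each). Its log2 fold change was -1.58 ± 0.13 (SE; edgeR adjusted p = 2.46e-05), and it was called lower in all 17 alternatives, with values from -1.65 to -0.92. Ferroportin is abundant in erythroid cells and in macrophages that recycle red cells. Beside it, 10 of the 15 erythroid markers were called lower as given above. Adgre1, which encodes the macrophage antigen F4/80, stood at 359.3, 361.1 and 273.4 CPM in KD_MV and 761.8, 652.5 and 700.5 CPM in Ctrl_MV. The macrophage markers had no single direction, since 5 of 12 tested were called higher and 3 lower. C1qb (log2 fold change 3.16), C1qc (2.09) and Vcam1 (1.37) were among those higher. Their means were 3.63, 2.16 and 20.9 CPM in KD_MV and 0.404, 0.504 and 8.09 CPM in Ctrl_MV. Spic was among those lower (-0.9, with means of 21.6 CPM in KD_MV and 40.3 CPM in Ctrl_MV), and C1qa was not called (0.32). The part of erythroid cells and macrophages in the Slc40a1 level was not tested.

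Of the 2 genes for iron regulatory proteins, 1 rose and 1 did not pass the test. Aco1 (ENSMUSG00000028405, chr4:40143081-40198338, plus strand), which encodes iron regulatory protein 1, rose: it had 27.0, 26.0 and 23.7 CPM in KD_MV libraries and 12.8, 12.8 and 13.1 CPM in Ctrl_MV libraries. The Ctrl_MV libraries were nearly equal and all KD_MV libraries lay above them, with means of 25.5 ± 1.7 CPM in KD_MV and 12.9 ± 0.21 CPM in Ctrl_MV (SD, n = 3 each). The log2 fold change of Aco1 was 0.99 ± 0.11 (SE; edgeR adjusted p = 0.000114), and all 17 alternatives called it higher, between 0.94 and 1.39. Ireb2 (ENSMUSG00000032293, chr9:54863789-54912530, plus strand), which encodes iron regulatory protein 2, had 72.0, 75.1 and 67.5 CPM in KD_MV libraries and 86.2, 75.7 and 87.2 CPM in Ctrl_MV libraries. These groups did not overlap, but the gap between KD_MV replicate 2 and Ctrl_MV replicate 2 was small. Ireb2 was not called, at a log2 fold change of -0.22 ± 0.10 (SE; 95% interval -0.44 to 0.01; edgeR adjusted p = 0.102). Its sign turned with the scaling, to 0.19 with library size alone (edgeR adjusted p = 0.14) and to 0.35 on log2(TPM + 1) (limma adjusted p = 0.0209).

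The size of each change depended on the scaling. With library size alone the median of all tested genes moved to 0.43, and the members moved by a similar amount: Tfrc to -0.55, Slc11a2 to -0.35, Slc11a1 to -0.96, Fth1 to -0.48, Ftl1 to -0.75, Slc40a1 to -1.18, Aco1 to 1.39 and Ncoa4 to -0.09. The calls were the same there, 6 lower and 1 higher. On log2(TPM + 1), where the median gene stood at 0.51, 3 members (Slc11a1, Ftl1 and Slc40a1) were called lower and 2 (Aco1 and Ireb2) higher.

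**Figure D2:**
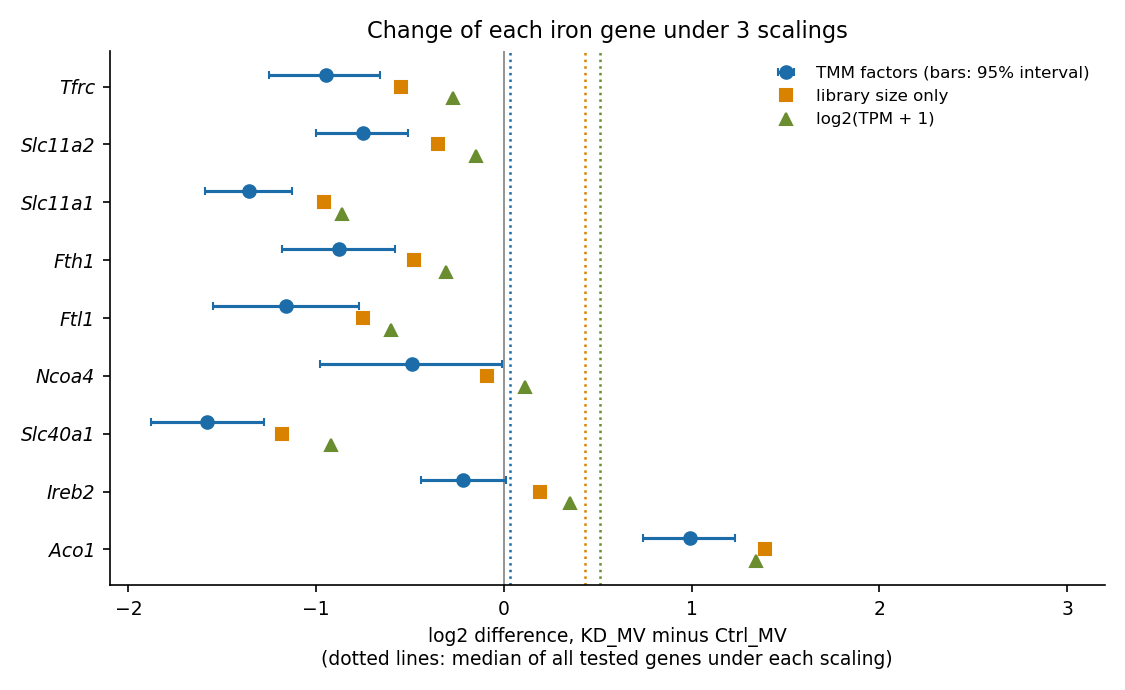
Log2 difference, KD_MV minus Ctrl_MV (horizontal axis), of each iron gene under TMM factors (circles, with 95% intervals), library size alone (squares) and log2(TPM + 1) (triangles); dotted lines mark the median of all tested genes under each scaling, at 0.03, 0.43 and 0.51. Most genes keep a similar distance from the median line while moving to the right, and Ireb2 and Ncoa4 cross 0.

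A ratio of 2 genes within a library does not depend on the scaling of that library. A ratio of TPM does depend on the gene lengths used, which differ somewhat between libraries in the deposited TPM. The deposited TPM were used for 5 ratios, tested with an exact two-sided permutation test; 3 libraries against 3 cannot go below p = 0.1, so no ratio could pass the threshold. Tfrc over Fth1, uptake set against storage, was 0.00354, 0.00337 and 0.00299 in KD_MV libraries and 0.00329, 0.00298 and 0.00336 in Ctrl_MV libraries. The groups overlapped (log2 difference 0.04, exact p = 0.5, 0.5 adjusted over the 5 ratios). Tfrc over Slc40a1, uptake set against export, was 9.77, 9.41 and 10.1 in KD_MV libraries and 6.47, 5.59 and 6.02 in Ctrl_MV libraries, higher in each KD_MV library (log2 difference 0.70, exact p = 0.1, adjusted 0.125). Fth1 over Ftl1, the ratio of the ferritin chains, was 6.53, 6.72 and 8.92 in KD_MV libraries and 5.56, 6.26 and 6.1 in Ctrl_MV libraries (log2 difference 0.29, exact p = 0.1, adjusted 0.125). KD_MV replicate 3, the library with the lowest Ftl1, was the highest of them, and without it the log2 difference was 0.15. Slc11a1 over Slc11a2 was 16.8, 18.5 and 18.3 in KD_MV libraries and 29.4, 30.0 and 28.0 in Ctrl_MV libraries, so the phagosomal transporter was lower relative to the endosomal one in each KD_MV library (log2 difference -0.71, exact p = 0.1, adjusted 0.125). Aco1 over Ireb2 was 0.579, 0.526 and 0.532 in KD_MV libraries and 0.226, 0.259 and 0.253 in Ctrl_MV libraries, the widest separation of the 5 (log2 difference 1.15, exact p = 0.1, adjusted 0.125).

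**Figure D3:**
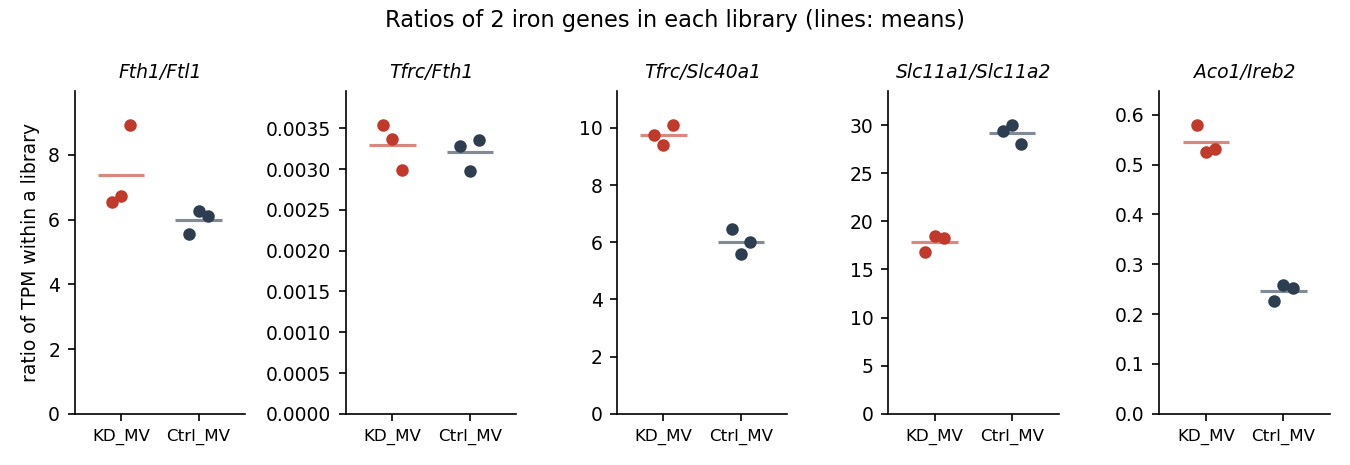
Ratio of the TPM of 2 iron genes within a library (vertical axes, linear, from 0); points are libraries and lines group means, KD_MV at the left and Ctrl_MV at the right. Tfrc/Fth1 overlaps between the groups, and the other 4 ratios do not.

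Ordered by TPM, the members spanned a wide range. In KD_MV the order of mean TPM was Fth1 at 38803.9, Ftl1 at 5371.1, Slc11a1 at 690.0, Tfrc at 128.3, Ncoa4 at 63.2, Slc11a2 at 38.7, Ireb2 at 24.4, Aco1 at 13.3 and Slc40a1 at 13.2, and only the last pair of neighbours overlapped between libraries. In Ctrl_MV it was Fth1 at 48157.1, Ftl1 at 8112.4, Slc11a1 at 1252.1, Tfrc at 154.9, Ncoa4 at 59.4, Slc11a2 at 43.0, Slc40a1 at 25.6, Ireb2 at 19.0 and Aco1 at 4.66 TPM. There Ncoa4 and Slc11a2 were the only neighbours that overlapped. The top 6 places were the same in both groups. At the bottom, Slc40a1 stood level with Aco1 and below Ireb2 in KD_MV, and above both in Ctrl_MV. The length used for a gene in the deposited TPM differs somewhat between libraries, so small TPM differences between groups carry that uncertainty.

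Genes were also read by class of iron-responsive element, as listed from textbook knowledge; the search found no core in Slc11a2, Cdc14a or Epas1, and an element in CDC14A is known from human transcripts. Of 3 genes listed for the 3' UTR, Tfrc and Slc11a2 fell and Cdc14a, a phosphatase gene, was not called (16.0, 17.8 and 17.3 CPM in KD_MV and 13.8, 14.7 and 14.6 CPM in Ctrl_MV; log2 fold change 0.25 ± 0.11, SE; edgeR adjusted p = 0.0912). Of 5 listed for the 5' UTR, Epas1 was too low to be tested, and Fth1, Ftl1, Slc40a1 and Alas2 fell. Over all tested genes 24.9% were called lower. With TMM factors, genes that fell were thus in both classes, and all of them except Alas2 are members already counted above. This depended on the scaling. On log2(TPM + 1), Tfrc (-0.27), Slc11a2 (-0.15) and Fth1 (-0.31) lost their calls, and Ftl1, Slc40a1 and Alas2 were still called lower. Cdc14a was called higher there (0.84, limma adjusted p = 0.000254) and with library size alone (0.65, edgeR adjusted p = 0.00118). Outside the members, a core was found in the 5' UTR of 1 of the listed genes, at chrX:150547459-150547485 on the plus strand.
Alas2: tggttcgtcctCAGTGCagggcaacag
Alas2, the erythroid enzyme that starts heme synthesis and itself one of the erythroid markers, stood at 162.9, 139.2 and 116.3 CPM in KD_MV libraries and at 1890.1, 1888.9 and 1908.3 CPM in Ctrl_MV libraries (log2 fold change -3.76 ± 0.15, SE; edgeR adjusted p = 9.44e-07). Its groups were farther apart than those of any member.

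Around the members, 58 other iron genes were listed by role, 44 of which were tested: 11 rose, 19 fell and 14 did not pass the test, with a median log2 fold change of -0.18 beside 0.03 over all genes. Over all tested genes 27.8% were called higher and 24.9% lower. The split leaned the other way with library size alone, where 20 were called higher and 10 lower. In uptake and reduction, 4 of 9 tested rose and 4 fell. Of those that rose, Steap3, Slc39a8 and Tfr2 had log2 fold changes of 3.05, 1.83 and 1.61. Their levels were low, at means of 2.64, 1.2 and 0.984 CPM over the 6 libraries. Steap4, a metalloreductase, fell by 1.85 on the log2 scale, with 51.9, 43.4 and 48.6 CPM in KD_MV libraries and 182.1, 174.4 and 161.4 CPM in Ctrl_MV libraries (SE 0.11, edgeR adjusted p = 4.06e-06). Mcoln1, a lysosomal cation channel that passes iron, fell by 0.87 (103.6 ± 8.31 CPM in KD_MV and 189.9 ± 17.1 CPM in Ctrl_MV; SD, n = 3 each), a call lost on log2(TPM + 1) (-0.31, limma adjusted p = 0.0524). Slc39a14, which imports iron not bound to transferrin, stood at -0.56, and its call was lost with library size alone (-0.16, edgeR adjusted p = 0.224) and its sign turned on log2(TPM + 1) (0.12). Exoc6 and Snx3, which serve traffic of the transferrin receptor, stood at 0.35 and -0.26; each call was lost in 4 of the 6 analyses that leave out a library (without KD_MV replicates 1 or 3 or Ctrl_MV replicates 1 or 3 for Exoc6, and without KD_MV replicates 1 or 2 or Ctrl_MV replicates 2 or 3 for Snx3), and Snx3 was called higher on log2(TPM + 1) (0.31, limma adjusted p = 0.0197).

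Of the 2 tested iron chaperones, which hand iron to ferritin, Pcbp2 did not pass the test (-0.05 ± 0.11, SE), and the lower call of Pcbp1 (-0.30 ± 0.10, SE; edgeR adjusted p = 0.0287) depended on KD_MV replicate 2, Ctrl_MV replicate 2 and Ctrl_MV replicate 3, each of whose removal ended it, and Pcbp1 was called higher on log2(TPM + 1) (0.27, limma adjusted p = 0.0282). Of 4 tested regulators, 2 fell and 0 rose, beside 24.9% called lower and 27.8% higher over all tested genes. Nfe2l2, which encodes NRF2, an activator of ferritin and heme oxygenase genes, had 299.0, 273.4 and 363.4 CPM in KD_MV libraries and 733.3, 744.8 and 780.6 CPM in Ctrl_MV libraries (log2 fold change -1.27 ± 0.12, SE; edgeR adjusted p = 5.68e-05). Bach1, which encodes a heme-sensing repressor of the same genes, had 69.2, 73.8 and 59.9 CPM in KD_MV libraries and 151.7, 109.7 and 119.8 CPM in Ctrl_MV libraries (log2 fold change -0.91 ± 0.14, SE; edgeR adjusted p = 0.000741). So by CPM the activator and the repressor were both lower in every KD_MV library. Bach1 lost its call on log2(TPM + 1) (-0.30, limma adjusted p = 0.107). Its groups overlapped by TPM, at 25.2 in KD_MV replicate 2 and 24.9 in Ctrl_MV replicate 2. Fbxl5, which encodes the iron sensor that marks iron regulatory protein 2 for degradation, did not pass the test (-0.27 ± 0.16, SE; edgeR adjusted p = 0.193). In the export and hepcidin list 2 of 5 tested rose and 1 fell, all at low levels.

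Of 10 tested genes of heme iron, 7 fell and 2 rose, beside 24.9% called lower and 27.8% higher over all tested genes. Of the 7, only 2 (Hmox1 and Flvcr2) were also called lower with library size alone, and the same 2 on log2(TPM + 1). Hmox1, the inducible heme oxygenase that frees iron from heme, had 843.0, 748.6 and 869.6 CPM in KD_MV libraries and 1645.0, 1656.9 and 1920.2 CPM in Ctrl_MV libraries (log2 fold change -1.09 ± 0.12, SE; edgeR adjusted p = 9.32e-05). Its groups were well apart, and its change was similar in size to those of Tfrc and Ftl1. Slc48a1 (a heme transporter of endolysosomes), Blvrb (a biliverdin reductase) and Flvcr1 (a heme exporter, listed under the symbol Mfsd7b) stood at -0.53, -0.64 and -0.65, but all 3 lost the call with library size alone (-0.13, -0.23 and -0.25), as did Hmox2 and Blvra, and Slc48a1 turned to 0.04 on log2(TPM + 1). Hp, which encodes the hemoglobin-binding plasma protein haptoglobin, rose by 0.73 (369.8 ± 88.6 CPM in KD_MV and 222.7 ± 50.2 CPM in Ctrl_MV; SD, n = 3 each), and removing KD_MV replicate 1, KD_MV replicate 2 or Ctrl_MV replicate 2 ended the call. Beside this group stand the hemoglobin shares of 1.09% of counts in KD_MV and 9.95% in Ctrl_MV.

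Of 11 tested genes of mitochondrial iron and iron-sulfur clusters, 2 rose and 3 fell. The shares over all tested genes were 27.8% called higher and 24.9% lower. The 2 mitoferrins, which import iron into mitochondria, went opposite ways: Slc25a37 had 234.1, 231.1 and 274.6 CPM in KD_MV libraries and 427.8, 379.8 and 397.2 CPM in Ctrl_MV libraries, and Slc25a28 had 49.6, 49.9 and 47.2 CPM in KD_MV libraries and 29.6, 32.0 and 30.5 CPM in Ctrl_MV libraries. The log2 fold changes were -0.70 ± 0.11 for Slc25a37 (SE; edgeR adjusted p = 0.000668) and 0.67 ± 0.10 for Slc25a28 (SE; edgeR adjusted p = 0.00044). Slc25a37 is the mitoferrin known from erythroid cells, and 10 of the 15 markers of those cells were called lower as given above. The Slc25a37 call was lost on log2(TPM + 1) (-0.15, limma adjusted p = 0.267). Isca1, a cluster assembly factor, fell by 1.27 (58.4 ± 3.12 CPM in KD_MV and 140.5 ± 5.39 CPM in Ctrl_MV), while Nfs1, the cysteine desulfurase gene, rose by 0.62 (39.4 ± 7.82 CPM in KD_MV and 25.6 ± 1.74 CPM in Ctrl_MV; SD, n = 3 in each group for both genes). Iscu, the scaffold on which clusters are built, stood at -0.35, and its call was lost with library size alone, where its sign turned (0.06, edgeR adjusted p = 0.634). Of the 3 genes of neutrophil iron sequestration 1 rose, 1 fell and 1 did not pass the test. Lcn2, which encodes lipocalin 2, a protein that binds bacterial siderophores, had 5150.9, 4906.6 and 4344.6 CPM in KD_MV libraries and 8783.6, 8614.9 and 8983.6 CPM in Ctrl_MV libraries (log2 fold change -0.87 ± 0.12, SE; edgeR adjusted p = 0.00038), and this call was lost on log2(TPM + 1) (-0.31, limma adjusted p = 0.068).

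**Figure D4:**
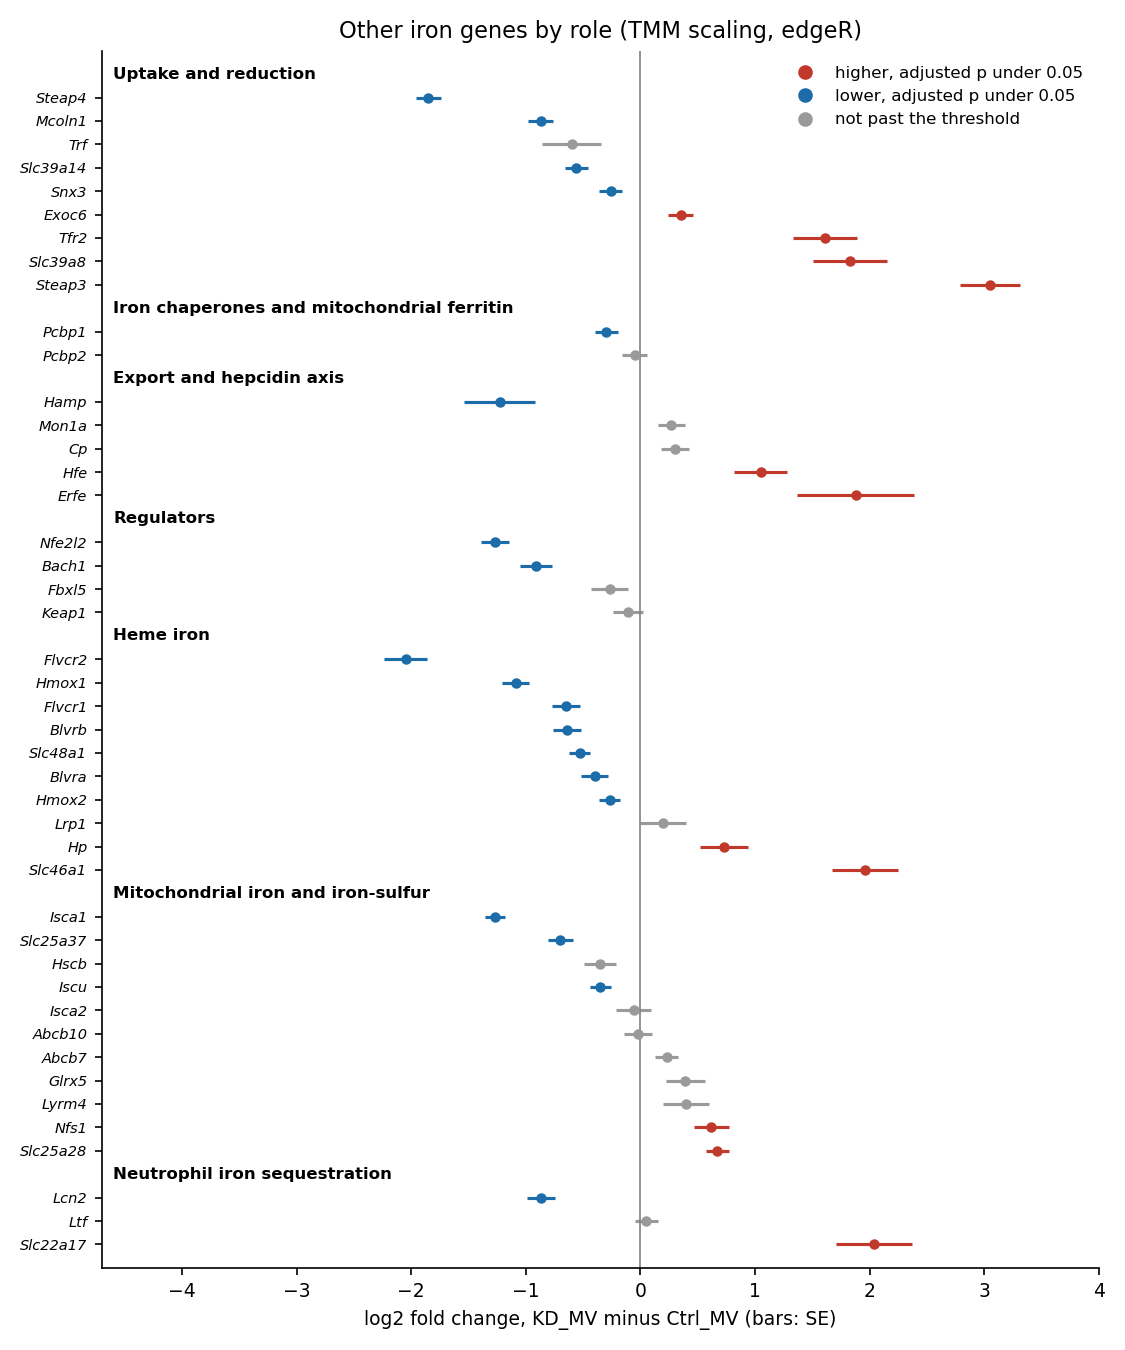
Log2 fold change, KD_MV minus Ctrl_MV, under TMM scaling (horizontal axis; bars are SE) of the 44 tested genes of the other iron list, grouped by role; red points were called higher, blue points lower and grey points did not pass an adjusted p of 0.05. Steap4 and Flvcr2 are at the lower end of their roles, and the genes farthest to the right, Steap3 among them, are at low levels.

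The genes whose profiles were most like those of the members were found by the Euclidean distance between log2 CPM over the 6 libraries, each centred on its own mean, among 10155 genes with a mean of at least 5 CPM. For Tfrc they were Rhob, Pgd and 2310001H17Rik (distances 0.15 to 0.16), for Fth1 Fas, Rragc and Wls (0.09 to 0.1), for Ftl1 Cd63, Slc20a1 and Cd300a (0.08 to 0.12), and for Slc40a1 Slc39a4, 1810011H11Rik and Olfm4 (0.1 to 0.14). For Slc11a1 they were Fam167a, Impact and 4833407H14Rik, for Slc11a2 Pip4k2c, Klhl24 and Fam76a, for Ireb2 Cbwd1, Alkbh5 and Il18r1, and for Aco1 Hars, Anapc5 and Acadm, all within 0.11. Ncoa4 had no gene as close: Vkorc1l1 was the nearest at 0.23, followed by Zbtb49 at 0.3 and 9230112E08Rik at 0.34. No member was among the 3 nearest genes of another member, and with 6 libraries in 2 groups these distances mainly compare the sizes of group differences.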

How the data were processed

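Libraries of bone marrow cells labelled as neutrophils were made with a stranded mRNA kit, per the labels' protocols. Per the submitters' processing notes, Trim Galore, Subread and featureCounts were used on mm10; the sources used here give no versions and no strand or multi-mapping setting. The deposited table holds raw counts, TPM and FPKM per gene and library, per the file headers. The deposited TPM were used for levels and ratios; the deposited FPKM were proportional to TPM and not used. Positions equalled GENCODE M21 for 48582 of 51826 rows; Fth1 was among those that differed, and its position is given as deposited. Even values made up 55.5 to 57.9% of counts of 1 to 20; the cause was not tested, and halved counts were tried.

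The test of the counts was edgeR's quasi-likelihood test (edgeR 4.0.16, R 4.3.3). It used filterByExpr (minimum count 10, total 15) and TMM factors (1.137 to 1.171 in KD_MV, 0.8649 to 0.8783 in Ctrl_MV), with glmQLFit and glmQLFTest for the group effect; p-values are two-sided, adjusted by Benjamini and Hochberg's method over 16071 genes, and called under 0.05. The fit was tested on simulated counts with 200 changed genes. Those counts lacked the wide group differences of the data, so they do not check the choice of scaling. Alternatives used DESeq2 1.42.0, limma 3.58.1 and other scalings, filters and sets of libraries. The members and lists were chosen with earlier results of these data known, so no list was tested as a set. All members were named; of other iron genes, per role, those called with a mean of at least 5 CPM (at most 5, by p) and those not called with at least 100 CPM. Cdc14a, Alas2, ferritin pseudogenes and some genes outside this rule were also named. Symbols Mfsd7b, Mfsd7c and Hfe2 stood for Flvcr1, Flvcr2 and Hjv, and Ahsp was not analysed here. Some genes of the lists are not reported here and are left out of their counts.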

Additional observations from a re-analysis of the deposited data

How the results depend on the processing

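Of the alternatives to the edgeR test with TMM factors, RLE or upper-quartile factors, no filter or a filter of 1 CPM in 3 libraries, DESeq2, limma-voom, halved counts and omission of the hemoglobin genes moved no count of calls by over 1.5 times. The scaling did. Genes called higher numbered 4464, and 7455 with library size alone or 7719 with limma on log2(TPM + 1); genes called lower numbered 3995, and 2010 or 1228. Among the 9 members, 2 were called higher and 3 lower on log2(TPM + 1), and Ireb2 turned there to 0.35. Among the other iron genes, 20 (library size alone) or 18 (TPM) were called higher in place of 11, and 10 or 6 lower in place of 19. Of the genes with iron-responsive elements, 0 were called higher by edgeR with TMM factors (0 also by DESeq2 and limma-voom), and 1, Cdc14a, with library size alone and on log2(TPM + 1); leaving out a library gave 0 to 1, the 1 being Epas1, which was tested and called without KD_MV replicate 2; 3 were called lower on TPM in place of 6. Why scalings differ for a gene was not tested. From raw counts in place of TPM, the log2 difference of the Slc11a1 over Slc11a2 ratio was -0.61 in place of -0.71. That of Tfrc over Fth1 was -0.07 in place of 0.04, and that of Tfrc over Slc40a1 0.64 in place of 0.70. Fth1 over Ftl1 stayed at 0.29, and Aco1 over Ireb2 was 1.2 in place of 1.15.

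With a replicate block, 7 members were called lower and 1 higher, Ncoa4 joining at -0.49 (adjusted p = 0.0133), and 4123 genes were called higher and 3676 lower. The replicate numbers did not pair the libraries: deviations of same-numbered libraries correlated at -0.007, -0.079 and -0.054, and no library correlated best with its own number. DESeq2 also called Ncoa4 (-0.52, adjusted p = 0.0324). Each member had 412 or more counts in every library. Whether depth or the spread between the 3 libraries of a group limits these comparisons was not tested.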
